A study of Mus musculus with 33 samples.

Results

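Insulin-like growth factor 1 (Igf1), its receptor (Igf1r) and 6 of the secreted binding proteins (Igfbp2 to Igfbp7) were followed in mouse fibroblasts treated to become osteoblasts, in calvarial osteoblast cultures and in fibroblasts. The 8 genes were chosen by name, with earlier results of these data known. All 8 of them were among the 17982 genes of the count table and among the 13438 genes tested. The study sequenced poly-A RNA from 15 libraries in groups of 3, and the counts of 9 of them were analysed here. Induced osteoblasts (iOB, n = 3) came from tail-tip fibroblasts of Col2.3GFP mice, whose GFP reporter marks osteoblasts through a collagen type I promoter fragment. They received lentivirus carrying a transcription factor gene that the labels do not name, the virus was removed after 24 hours, the cultures were split on day 3, and osteogenic medium replaced fibroblast medium on day 5. Calvarial-OB (n = 3) were calvarial progenitor cells under osteoblast differentiation, and fibroblasts (n = 3) were the passaged, frozen Col2.3GFP tail-tip cells. Sorted GFP-positive cells of iOB cultures (iOB GFP+) entered only through a comparison with fibroblasts that the authors deposited. No group analysed here had virus alone or osteogenic medium alone, so these 2 treatments cannot be told apart in iOB. The labels mark the calvarial-OB libraries as dataset 2, and a difference between datasets and one between cell types cannot be told apart there. They do not state whether replicates were separate animals or cultures, and p-values then measure only the spread between these libraries.

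IGF1 is a peptide hormone made by the liver and, locally, by bone cells. It acts through a receptor tyrosine kinase that signals to the PI3K-AKT and MAPK pathways, and it promotes survival, differentiation and matrix production of osteoblasts. Most IGF outside cells is held by binding proteins that prolong its life and block or favour its access to the receptor, and proteases release it by cleaving them.

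Library totals were 5646299 to 8187715 counts in iOB, 8219411 to 15023771 in calvarial-OB and 7634593 to 13367273 in fibroblasts. Replicates of a group correlated at r = 0.967 to 0.991 on log2 values over genes, which are not independent replicates. Calvarial-OB replicate 1 stood apart from the others of its group, with r = 0.970 and 0.967 against 0.985 between replicates 2 and 3. Of the osteoblast markers used to check the labels, all 11 measured were called higher in iOB than in fibroblasts, and all 11 were called higher in calvarial-OB. The 2 cultures differed in these markers, with 3 called higher and 5 lower in iOB than in calvarial-OB and 3 not called. Runx2 and Sp7 on this list are transcription factor genes, with means of 432 and 605 CPM in iOB against 109 and 56.9 CPM in calvarial-OB. The labels do not name the factor that the virus carried. Whether reads of the viral gene are among the iOB counts of Runx2 or Sp7 was not tested. Both osteoblast cultures also held RNA of macrophage marker genes. The 18 measured macrophage markers summed to 2735 to 4383 CPM (counts scaled to a fixed library size) in iOB and 4078 to 7676 CPM in calvarial-OB, against 48.0 to 98.4 CPM in fibroblasts. Of these markers, Cd163, Fcgr1 and Aif1 were at 0 in at least 1 fibroblast library. Endothelial markers summed to at most 22.6 CPM in any library, and smooth muscle markers to 1449 to 1676 CPM in iOB, 1393 to 2289 CPM in calvarial-OB and 1904 to 2618 CPM in fibroblasts. The 8 IGF genes together took 0.372% to 0.584% of the counts in iOB, 0.430% to 0.469% in calvarial-OB and 0.245% to 0.291% in fibroblasts. Osteoclast markers summed to 253 to 292 CPM in iOB, 289.5 to 325 CPM in calvarial-OB and 119 to 163 CPM in fibroblasts. Most of this was Ctsk, with means of 219, 276 and 141 CPM in these groups. Acp5 had means of 26.2, 23.8 and 2.25 CPM, and Mmp9 of 29.6, 7.64 and 3.39 CPM. Calcr, Dcstamp, Ocstamp and Oscar had means of at most 0.801 CPM in any group. Of 10 fibroblast markers, which osteoblasts also express in part, 3 were higher and 6 lower in iOB than in fibroblasts, and 4 were higher and 5 lower in calvarial-OB.

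The family divided into genes that were higher and genes that were lower in the osteoblast cultures. Values are CPM scaled by edgeR's TMM factors, differences between groups are log2 fold changes with their SE unless another scale is named, and a gene is called changed at a Benjamini-Hochberg adjusted p under 0.05 over the 13438 genes tested. In iOB against fibroblasts, 6 of the 8 genes passed, where 43.3% of all tested genes did. The 3 higher genes were Igf1, Igfbp2 and Igfbp4 (22.7% of tested genes were higher), and the 3 lower genes were Igfbp3, Igfbp5 and Igfbp7 (20.6% were lower), while Igf1r and Igfbp6 did not pass. In calvarial-OB against fibroblasts all 8 passed, where 55.8% of tested genes did. The directions were those of iOB for the 6 genes named, with Igfbp6 higher and Igf1r lower in addition, which made 4 higher (28.4% of all tested genes) and 4 lower (27.4%). Between iOB and calvarial-OB, 4 of the 8 passed, close to the 48.8% of tested genes, with 2 higher (24.7% of tested genes) and 2 lower (24.1%). The groups did not overlap for 6 of the 8 genes in iOB against fibroblasts (63.0% of tested genes), for 7 in calvarial-OB against fibroblasts (60.5%) and for 4 in iOB against calvarial-OB (55.5%). The median log2 fold change of the 8 genes was 0.02 in iOB and -0.08 in calvarial-OB against fibroblasts, beside -0.04 and 0.02 over all tested genes. The 2 comparisons share the fibroblast libraries, so their directions are not independent of each other.

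The upstream sequences of the genes called in one direction in both cultures, and kept under every alternative tried, are given for the ligand and 4 of the binding proteins. They are the RefSeq promoters of GRCm38.p6, 250 bases before to 50 bases after the annotated start, printed 5′ to 3′ on the gene's strand. All 8 genes matched an entry, and Igfbp2 had 2 annotated starts. Igf1 (chr10:87860861-87861160, + strand), Igfbp2 (chr1:72824230-72824529, + strand) and Igfbp4 (chr11:99040994-99041293, + strand) were the genes that were higher.
Igf1: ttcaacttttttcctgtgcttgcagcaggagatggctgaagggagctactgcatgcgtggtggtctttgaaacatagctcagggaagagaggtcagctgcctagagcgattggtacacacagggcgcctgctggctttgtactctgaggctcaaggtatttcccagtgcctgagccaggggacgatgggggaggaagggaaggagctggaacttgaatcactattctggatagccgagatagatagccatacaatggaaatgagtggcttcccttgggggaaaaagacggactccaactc
Igfbp2: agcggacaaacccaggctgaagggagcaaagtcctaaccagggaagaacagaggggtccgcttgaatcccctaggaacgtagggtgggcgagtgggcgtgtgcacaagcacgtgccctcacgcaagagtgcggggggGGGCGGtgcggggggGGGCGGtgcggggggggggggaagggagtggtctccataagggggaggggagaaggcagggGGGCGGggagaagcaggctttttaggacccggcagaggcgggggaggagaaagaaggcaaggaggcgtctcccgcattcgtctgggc
Igfbp4: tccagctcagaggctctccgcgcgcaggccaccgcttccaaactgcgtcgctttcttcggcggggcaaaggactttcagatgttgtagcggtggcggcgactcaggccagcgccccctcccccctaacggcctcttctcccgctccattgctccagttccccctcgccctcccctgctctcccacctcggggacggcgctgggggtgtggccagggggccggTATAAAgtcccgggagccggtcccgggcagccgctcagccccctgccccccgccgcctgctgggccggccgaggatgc
Igfbp3 (chr11:7213874-7214173, - strand) and Igfbp7 (chr5:77407996-77408295, - strand) were the genes that were lower.
Igfbp3: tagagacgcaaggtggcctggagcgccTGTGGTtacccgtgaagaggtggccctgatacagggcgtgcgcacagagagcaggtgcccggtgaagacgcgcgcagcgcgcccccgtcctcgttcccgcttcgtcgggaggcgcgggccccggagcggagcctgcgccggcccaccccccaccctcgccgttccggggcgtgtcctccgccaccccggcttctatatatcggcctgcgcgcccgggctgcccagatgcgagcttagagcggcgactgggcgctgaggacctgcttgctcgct
Igfbp7: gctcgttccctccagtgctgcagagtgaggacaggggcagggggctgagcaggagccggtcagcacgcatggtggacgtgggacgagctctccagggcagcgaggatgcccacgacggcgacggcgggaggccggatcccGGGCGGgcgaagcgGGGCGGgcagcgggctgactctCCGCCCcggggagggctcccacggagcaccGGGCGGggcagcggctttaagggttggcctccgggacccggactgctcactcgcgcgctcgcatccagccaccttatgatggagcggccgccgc
Capitals mark matches, on either strand, to the TATA box TATAAA, the GC box GGGCGG, the RUNX core TGTGGT and the homeobox core TAATTA, which do not overlap one another. The window of Igf1 held none of the 4 motifs. Igfbp2 held 3 GC boxes, the nearest beginning at -37 from the start, and Igfbp7 held 4. Igfbp4 held a TATA box at -28, and Igfbp3 held the RUNX core at -223. Of the 32851 promoters of this length, 13.6% held the TATA box, 35.7% the GC box, 16.8% the RUNX core and 5.29% the homeobox core. The match to these letters is a description of the window and not evidence that a factor bound there. Igf1r held 2 GC boxes, Igfbp6 a TATA box at -148, and Igfbp5 none of the 4 motifs.

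The ligand was graded across the 3 groups. Igf1 stood at 134, 218 and 155 CPM in the iOB libraries, 551, 484 and 636 CPM in calvarial-OB and 44.7, 43.8 and 35.1 CPM in fibroblasts. The 3 ranges do not overlap, and every calvarial-OB library lay above every iOB library, which lay above every fibroblast library. The means were 169 ± 43.5 CPM in iOB, 557 ± 76.5 CPM in calvarial-OB and 41.2 ± 5.28 CPM in fibroblasts (SD, n = 3 each). Igf1 was 4.12-fold higher in iOB than in fibroblasts (log2 fold change 2.04 ± 0.18, SE; edgeR adjusted p = 4.02e-06) and 13.6-fold higher in calvarial-OB than in fibroblasts (3.76 ± 0.19; edgeR adjusted p = 3.84e-08). It was lower in iOB than in calvarial-OB, at -1.72 ± 0.18 (edgeR adjusted p = 1.34e-05). These are bulk libraries, in which fewer cells of a type and less RNA per cell cannot be told apart.

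Igf1 is expressed by macrophages and adipocytes as well as by osteoblasts, so the marker lists of these cells stand beside it. Osteoblast markers, 11 in number, summed to 36840, 30940 and 31740 CPM in iOB replicates 1 to 3. They summed to 65770, 61720 and 37620 CPM in calvarial-OB and 18970, 18580 and 17530 CPM in fibroblasts. These sums did not overlap between groups and had the order of Igf1. Most of each sum was Col1a1, also on the fibroblast list, with means of 28662, 50309 and 18241 CPM in iOB, calvarial-OB and fibroblasts. Taken singly, the 11 markers did not all have this order. Of them 3 were called higher and 5 lower in iOB than in calvarial-OB. The macrophage sums were 2735, 4187 and 4383 CPM in iOB replicates 1 to 3, 7676, 4078 and 4775 CPM in calvarial-OB and 98.4, 66.6 and 48.0 CPM in fibroblasts. Adipocyte markers, 10 in number, summed to 343, 408 and 414 CPM in iOB, 1531, 1591 and 2487 CPM in calvarial-OB and 145, 155 and 139 CPM in fibroblasts. All 18 macrophage markers were called higher in both osteoblast cultures than in fibroblasts, and 8 of 18 were called lower in iOB than in calvarial-OB. Of the 9 adipocyte markers tested, 8 were higher and 1 lower in iOB, all 9 were higher in calvarial-OB, and all 9 were lower in iOB than in calvarial-OB. The macrophage and adipocyte sums were thus higher in both cultures than in fibroblasts, as Igf1 was. Between iOB and calvarial-OB the macrophage sums overlapped, while the adipocyte sums and Igf1 did not. The part of any of these lists in the level of Igf1 was not tested. The lists also differed between the groups compared for the other members, and their part in those differences was not tested.

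**Figure D1:**
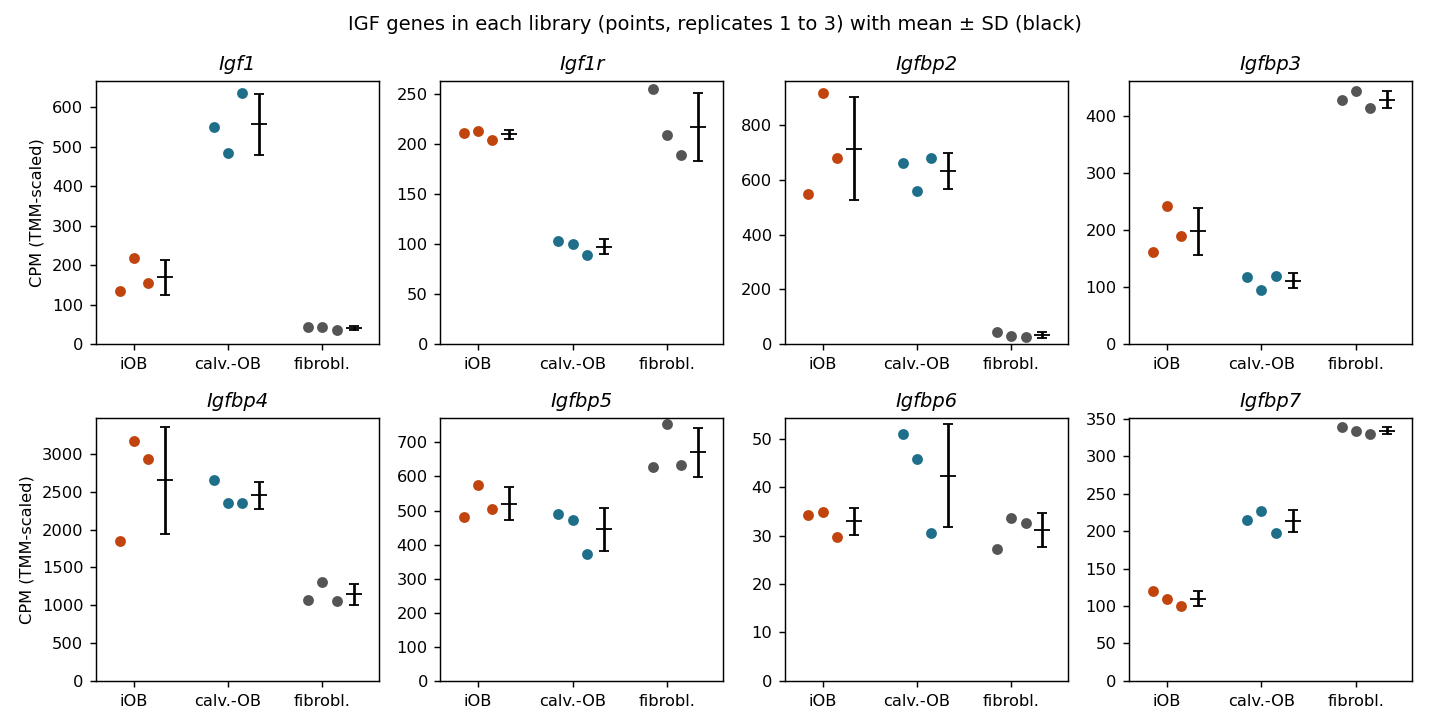
TMM-scaled CPM of the 8 genes (vertical axes, linear, from 0) in iOB, calvarial-OB and fibroblasts. Each coloured point is a library and the black marks give mean ± SD (n = 3); Igf1 forms 3 separate bands, with calvarial-OB at 484 to 636 CPM, while Igfbp6 overlaps among all 3 groups.

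The receptor gene was not called in iOB and was lower in calvarial-OB. Igf1r had 211, 213 and 204 CPM in iOB, 103, 100.4 and 88.9 CPM in calvarial-OB, and 254, 208 and 188 CPM in fibroblasts. The iOB values lay inside the fibroblast range, and all 3 calvarial-OB values lay below both other groups. Means were 209 ± 4.56 CPM in iOB, 97.4 ± 7.46 CPM in calvarial-OB and 217 ± 33.8 CPM in fibroblasts (SD, n = 3 each). The difference of iOB from fibroblasts was -0.05 on the log2 scale, with a 95% interval of -0.31 to 0.21 (edgeR adjusted p = 0.754). In calvarial-OB it was lower than in fibroblasts, at -1.16 ± 0.12 (edgeR adjusted p = 7.68e-06), and iOB stood above calvarial-OB by 1.10 ± 0.12 (edgeR adjusted p = 2.07e-05).

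Igfbp2 had the largest fold change of the 8 genes against fibroblasts, in both cultures. The protein carries an integrin-binding motif and binds IGF1 and IGF2. It stood at 548, 915 and 678 CPM in iOB, 662, 557 and 679 CPM in calvarial-OB and 44.8, 30.9 and 25.9 CPM in fibroblasts. The osteoblast cultures overlapped with each other, and both lay above all fibroblast libraries. Igfbp2 was 21.1-fold higher in iOB than in fibroblasts (log2 fold change 4.40 ± 0.24; edgeR adjusted p = 1.21e-07), the 385th largest increase of the 13438 tested genes. In calvarial-OB it was 18.7-fold higher (4.22 ± 0.24; edgeR adjusted p = 6.70e-08). The difference of iOB from calvarial-OB was 0.17, with a 95% interval of -0.27 to 0.62 (edgeR adjusted p = 0.512).

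Igfbp4, a binding protein that mostly inhibits IGF action and is cut by PAPP-A, was the other binding protein higher in both cultures. Its values were 1849.9, 3176 and 2938 CPM in iOB, 2657, 2346 and 2354 CPM in calvarial-OB and 1076, 1302 and 1057 CPM in fibroblasts. All iOB and calvarial-OB values exceeded all fibroblast values, and iOB spread the widest of the 3 groups. The log2 fold change was 1.21 ± 0.18 in iOB (edgeR adjusted p = 0.000177) and 1.10 ± 0.18 in calvarial-OB (edgeR adjusted p = 0.000238). iOB minus calvarial-OB was 0.11 with a 95% interval of -0.27 to 0.50 (edgeR adjusted p = 0.617).

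Igfbp3 and Igfbp7 were lower in both cultures, in opposite order. Igfbp3 is the main carrier of IGF in the blood, where it forms a complex with the acid-labile subunit. It had 162, 243 and 190.1 CPM in iOB, 118, 95.6 and 119.9 CPM in calvarial-OB, and 428, 444 and 414 CPM in fibroblasts. No ranges overlapped, and the order was fibroblasts, then iOB, then calvarial-OB. Its log2 fold change was -1.11 ± 0.15 in iOB (edgeR adjusted p = 7.35e-05) and -1.95 ± 0.15 in calvarial-OB (edgeR adjusted p = 6.32e-07) against fibroblasts, and iOB exceeded calvarial-OB by 0.83 ± 0.15 (edgeR adjusted p = 0.000612).

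Igfbp7 binds IGFs weakly and lacks most of the carboxy-terminal domain of the other members. It stood at 120.1, 109.9 and 100.1 CPM in iOB, 215, 227 and 197 CPM in calvarial-OB, and 339, 334 and 329 CPM in fibroblasts. The 3 groups did not overlap, and here iOB was lowest. Igfbp7 was lower in iOB, at -1.60 ± 0.10 (edgeR adjusted p = 3.64e-07), the 284th largest decrease among 13438 genes, and in calvarial-OB, at -0.65 ± 0.10 (edgeR adjusted p = 0.000168). Between the cultures, iOB was lower than calvarial-OB, at -0.95 ± 0.10 (edgeR adjusted p = 1.74e-05). In RefSeq, Igfbp7 overlaps Polr2b, which had 63.8 to 70.0 CPM in iOB, 48.9 to 62.5 CPM in calvarial-OB and 95.9 to 110 CPM in fibroblasts. The strand setting of the counting is not stated, so reads from the stretch that the 2 genes share cannot be told apart. The length of that stretch was not examined. Igfbp7 also overlaps Gm34648, Igf1 overlaps Igf1os, and Igf1r overlaps Gm51487 and Gm51488. None of these genes has an entry in the deposited counts, so their levels could not be given.

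Igfbp5 and Igfbp6 had log2 fold changes between -0.59 and 0.44 with all 9 libraries, and some of their calls depended on single libraries. The lower Igfbp5 in calvarial-OB than in fibroblasts was called under every alternative tried. Igfbp5, a binding protein stored in bone matrix, had 479.9, 574 and 505 CPM in iOB, 489.8, 473 and 373 CPM in calvarial-OB, and 627, 753 and 633 CPM in fibroblasts. Fibroblast values lay above those of both cultures, which overlapped with each other. Igfbp5 is the neighbour of Igfbp2 on chromosome 1 in RefSeq, and the pair moved in opposite directions in both cultures. The log2 fold change was -0.37 ± 0.13 in iOB (edgeR adjusted p = 0.0358) and -0.59 ± 0.13 in calvarial-OB (edgeR adjusted p = 0.00199), and iOB minus calvarial-OB was 0.22 with an interval of -0.06 to 0.50 (edgeR adjusted p = 0.171). Without iOB replicate 1 or 3, or fibroblast replicate 2 or 3, the iOB difference was not called, at edgeR adjusted p = 0.121, 0.107, 0.224 and 0.0816, and without fibroblast replicate 2 it was -0.24. Without calvarial-OB replicate 1, iOB was called above calvarial-OB, at 0.35 (edgeR adjusted p = 0.0405).

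Igfbp6, which prefers IGF2 to IGF1, had 34.3, 34.9 and 29.8 CPM in iOB, 51.0, 45.7 and 30.5 CPM in calvarial-OB, and 27.1, 33.6 and 32.6 CPM in fibroblasts. All 3 groups overlapped. iOB minus fibroblasts was 0.09, with a 95% interval of -0.30 to 0.48 (edgeR adjusted p = 0.717). In calvarial-OB the log2 fold change was 0.44 ± 0.18 (edgeR adjusted p = 0.0495). That call was lost without calvarial-OB replicate 1 (0.27, edgeR adjusted p = 0.173), calvarial-OB replicate 2, or any of the 3 fibroblast libraries (edgeR adjusted p = 0.0721 to 0.167), and with only those 2 groups in the fit (edgeR adjusted p = 0.0898). Without calvarial-OB replicate 3 the value was 0.65 (edgeR adjusted p = 0.00171). iOB minus calvarial-OB was -0.35 with an interval of -0.74 to 0.03 (edgeR adjusted p = 0.121), and -0.53 without calvarial-OB replicate 3 (edgeR adjusted p = 0.00773).

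**Figure D2:**
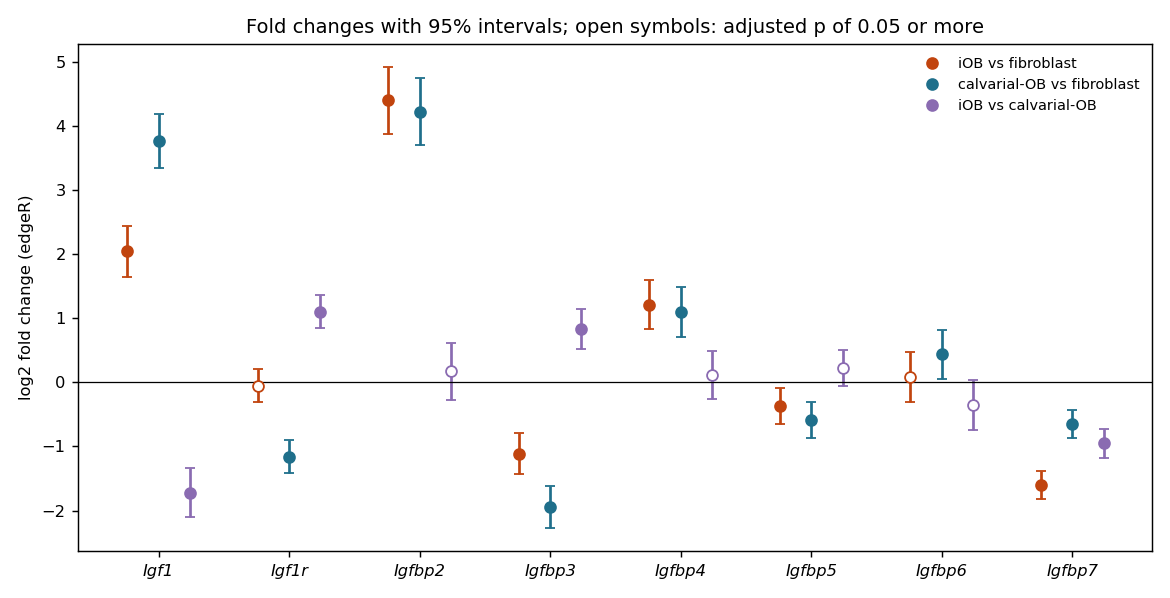
edgeR log2 fold change (vertical axis) of each of the 8 genes, with 95% intervals and open symbols for adjusted p of 0.05 or more, for iOB against fibroblasts, calvarial-OB against fibroblasts and iOB against calvarial-OB. Igfbp2 lies at 4.40 and 4.22 against fibroblasts, and Igfbp7 reaches -1.60 in iOB.

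Over the 9 libraries the 8 genes followed different patterns. Likeness was the root mean square difference of centred log2 CPM, where a smaller value means a closer pattern, over 6718 genes with at least median level, and it is a description only. The closest pair of members was Igf1r and Igfbp5, at 0.394, and the farthest was Igfbp2 and Igfbp3, at 2.78. For Igf1, whose own spread was 1.55, the nearest genes were 1500015O10Rik at 0.254, Mfap2 at 0.356 and Lpl at 0.370. For Igfbp2 they were Msr1 at 0.343, Ctsc at 0.428 and Egfl6 at 0.428. Msr1 is a macrophage scavenger receptor and Lpl is on the adipocyte marker list, so the values of the macrophage and adipocyte lists stand beside these too. Msr1 itself, 1500015O10Rik, Mfap2, Ctsc and Egfl6 are on none of the marker lists. The part of any cell type in these patterns was not tested. Igfbp3 was nearest to Igf2bp2 at 0.116, Layn at 0.122 and Gpc4 at 0.127. Igfbp4 was nearest to Clu at 0.170, Cxcl12 at 0.205 and Ctsd at 0.219, and Ctsd, a lysosomal protease, is also on the protease list. The nearest genes to Igfbp7 were P4ha1 at 0.114, 2410006H16Rik at 0.138 and Rplp0 at 0.147. Igf1r, Igfbp5 and Igfbp6 had small spreads of their own (0.543, 0.282 and 0.275). Frmd6 at 0.0995, 4933426M11Rik at 0.105 and Wdfy3 at 0.116 were nearest to Igf1r. Fbxo21 at 0.0775, Hnrnpul1 at 0.0854 and Mxra8 at 0.0883 were nearest to Igfbp5, and Col16a1 at 0.0941, Vps51 at 0.105 and Cd82 at 0.117 to Igfbp6.

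**Figure D3:**
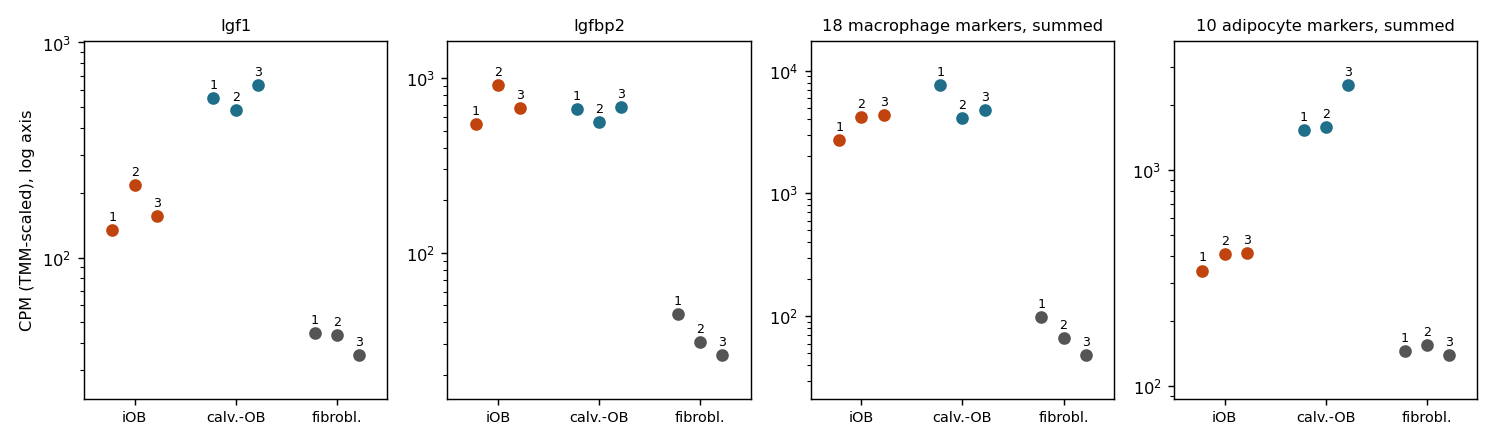
TMM-scaled CPM (vertical axes, log scale) of Igf1, of Igfbp2 and of the summed macrophage and adipocyte markers in iOB, calvarial-OB and fibroblasts; each point is a library with its replicate number. Macrophage markers sum to 2735 to 4383 CPM in iOB, against 48.0 to 98.4 CPM in fibroblasts, and Igfbp2 stands at 548 to 915 CPM in iOB, against 25.9 to 44.8 CPM in fibroblasts.

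The rest of the pathway was counted in lists, beside the shares of all tested genes that were higher or lower, which were 22.7% and 20.6% in iOB against fibroblasts, 28.4% and 27.4% in calvarial-OB against fibroblasts, and 24.7% and 24.1% in iOB against calvarial-OB. Of 8 other ligands, receptors and carriers tested, 1 was higher and 1 lower in iOB than in fibroblasts (median log2 fold change 0.08), 4 were higher and 4 lower in calvarial-OB (-0.14), and 3 were higher and 2 lower in iOB than in calvarial-OB (-0.05). Igf2, the second ligand, stood at 16.5, 17.9 and 15.9 CPM in iOB, 539.5, 522 and 479 CPM in calvarial-OB, and 4.80, 2.97 and 3.07 CPM in fibroblasts. No groups overlapped, and calvarial-OB exceeded iOB by far more than iOB exceeded fibroblasts. Its log2 fold change was 2.20 ± 0.17 in iOB (edgeR adjusted p = 1.42e-06), 7.13 ± 0.18 in calvarial-OB (edgeR adjusted p = 2.89e-10) and -4.93 ± 0.15 for iOB against calvarial-OB (edgeR adjusted p = 2.46e-09). Igf2r, the clearance receptor for IGF2, was lower in both, at -0.90 in iOB (edgeR adjusted p = 3.02e-05) and -1.59 in calvarial-OB (edgeR adjusted p = 2.45e-07), and iOB stood above calvarial-OB by 0.69 (edgeR adjusted p = 0.000242). Lrp1, an endocytic receptor that also binds IGFBP3, was higher in iOB than in calvarial-OB by 1.19 (edgeR adjusted p = 0.000194). Insr, the insulin receptor, had a log2 fold change of 0.13 in iOB (edgeR adjusted p = 0.441) and -0.67 in calvarial-OB (edgeR adjusted p = 0.000913), and iOB stood above calvarial-OB by 0.80 (edgeR adjusted p = 0.00038).

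Of 18 binding-protein proteases and inhibitors tested, 10 were higher and 3 lower in iOB than in fibroblasts (median log2 fold change 0.76). In calvarial-OB 7 were higher and 5 lower (0.90), and 9 were higher and 7 lower in iOB than in calvarial-OB (0.47). Over all tested genes the higher and lower shares were about equal in each comparison, as given above. The lower count in iOB fell to 1 without fibroblast replicate 3. Pappa2, a protease that cleaves IGFBP3 and IGFBP5, had 149, 262 and 234 CPM in iOB, 342.5, 269.8 and 438 CPM in calvarial-OB and 2.54, 2.41 and 1.58 CPM in fibroblasts. Its log2 fold change was 6.64 ± 0.31 in iOB (edgeR adjusted p = 4.54e-08) and 7.35 ± 0.31 in calvarial-OB (edgeR adjusted p = 1.40e-08). Both cultures lay above all fibroblast libraries, and iOB was lower than calvarial-OB, at -0.70 (edgeR adjusted p = 0.0168). Pappa, the protease that cuts IGFBP4, had 227, 195 and 204 CPM in iOB, 61.3, 52.7 and 79.0 CPM in calvarial-OB and 273, 243 and 205 CPM in fibroblasts. It was -0.20 in iOB (edgeR adjusted p = 0.298), with ranges that overlap, and -1.90 ± 0.16 in calvarial-OB (edgeR adjusted p = 1.13e-06), and iOB exceeded calvarial-OB by 1.69 ± 0.16 (edgeR adjusted p = 5.94e-06). Htra1 and Htra3, serine proteases with an IGFBP-like domain, were higher in iOB by 1.33 (edgeR adjusted p = 5.34e-06) and 3.35 ± 0.17 (edgeR adjusted p = 9.57e-08). In calvarial-OB Htra1 was higher by 1.78 (edgeR adjusted p = 3.47e-07), and iOB was lower than calvarial-OB, at -0.45 (edgeR adjusted p = 0.00946), or -0.28 without calvarial-OB replicate 1. Htra4, of the same family, had 15.9, 21.7 and 21.8 CPM in iOB and 0.363, 0.245 and 1.30 CPM in calvarial-OB, where only 25 counts over the 3 libraries stand behind the values. The groups did not overlap, and calvarial-OB replicate 3 stood above the other calvarial-OB libraries. Its log2 fold change was 4.70 ± 0.38 (edgeR adjusted p = 2.46e-06), and 5.98 without calvarial-OB replicate 3. Plat, the tissue plasminogen activator, was lower in calvarial-OB than in fibroblasts, at -2.63 ± 0.13 (edgeR adjusted p = 3.59e-08), and higher in iOB than in calvarial-OB by 2.26 ± 0.13 (edgeR adjusted p = 1.84e-07). Against fibroblasts Plat was also lower in iOB, at -0.37 (edgeR adjusted p = 0.0299). Stc2, a secreted inhibitor of PAPP-A, was not called in iOB, at -0.19 (edgeR adjusted p = 0.699), nor between iOB and calvarial-OB, at -0.88 (edgeR adjusted p = 0.0516), nor in calvarial-OB, at 0.69 (edgeR adjusted p = 0.0944). It was called in calvarial-OB at 0.97 without calvarial-OB replicate 3 (edgeR adjusted p = 0.0311), and between the cultures without calvarial-OB replicate 2 or 3 (edgeR adjusted p = 0.0389 and 0.0229). Its calvarial-OB values were 24.7, 10.3 and 9.44 CPM, replicate 1 standing apart. Without calvarial-OB replicate 1 it was at 0.11 in calvarial-OB against fibroblasts (edgeR adjusted p = 0.667) and -0.26 between iOB and calvarial-OB (edgeR adjusted p = 0.307).

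Downstream of the receptor, 31 signal transduction genes were tested. In iOB against fibroblasts 7 were higher and 9 lower (median log2 fold change -0.05), and in calvarial-OB 4 were higher and 14 lower (-0.31). The count of higher genes in iOB was 4 without iOB replicate 1 or 2 or fibroblast replicate 3. Between iOB and calvarial-OB, edgeR called 12 higher and 0 lower in iOB (0.24), where 24.7% of all tested genes were higher and 24.1% lower. At an unadjusted p under 0.05 the counts were 13 and 2, DESeq2 called 11 and 0, and without calvarial-OB replicate 1 edgeR called 15 and 2. Without calvarial-OB replicate 2 or 3 or iOB replicate 2, 1 was lower. Irs1, an adaptor that docks at the receptor, was at 0.40 in iOB (edgeR adjusted p = 0.0224), a call lost without iOB replicate 2 or 3 or fibroblast replicate 3 (edgeR adjusted p = 0.0519 to 0.072). In calvarial-OB Irs1 was at -0.25 (edgeR adjusted p = 0.11), and iOB stood above calvarial-OB by 0.65 (edgeR adjusted p = 0.00125). Grb14 and Grb10 are adaptors that bind the receptor and dampen it. They moved in opposite directions in iOB, by 1.61 (edgeR adjusted p = 3.80e-06) and -0.95 (edgeR adjusted p = 4.82e-05), and Grb14 was higher in calvarial-OB too, by 1.37 (edgeR adjusted p = 7.33e-06). Grb10 had a mean of 500 CPM in calvarial-OB against 888 CPM in fibroblasts, and these ranges did not overlap. Foxo3, a transcription factor that AKT keeps out of the nucleus, was lower in calvarial-OB than in fibroblasts, at -1.88 ± 0.16 (edgeR adjusted p = 1.55e-06), and iOB exceeded calvarial-OB by 1.28 (edgeR adjusted p = 6.30e-05). Against fibroblasts Foxo3 was also lower in iOB, at -0.60 (edgeR adjusted p = 0.00795). Mtor, a kinase of growth signalling, was higher in iOB than in calvarial-OB by 0.81 (edgeR adjusted p = 5.44e-05).

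**Figure D4:**
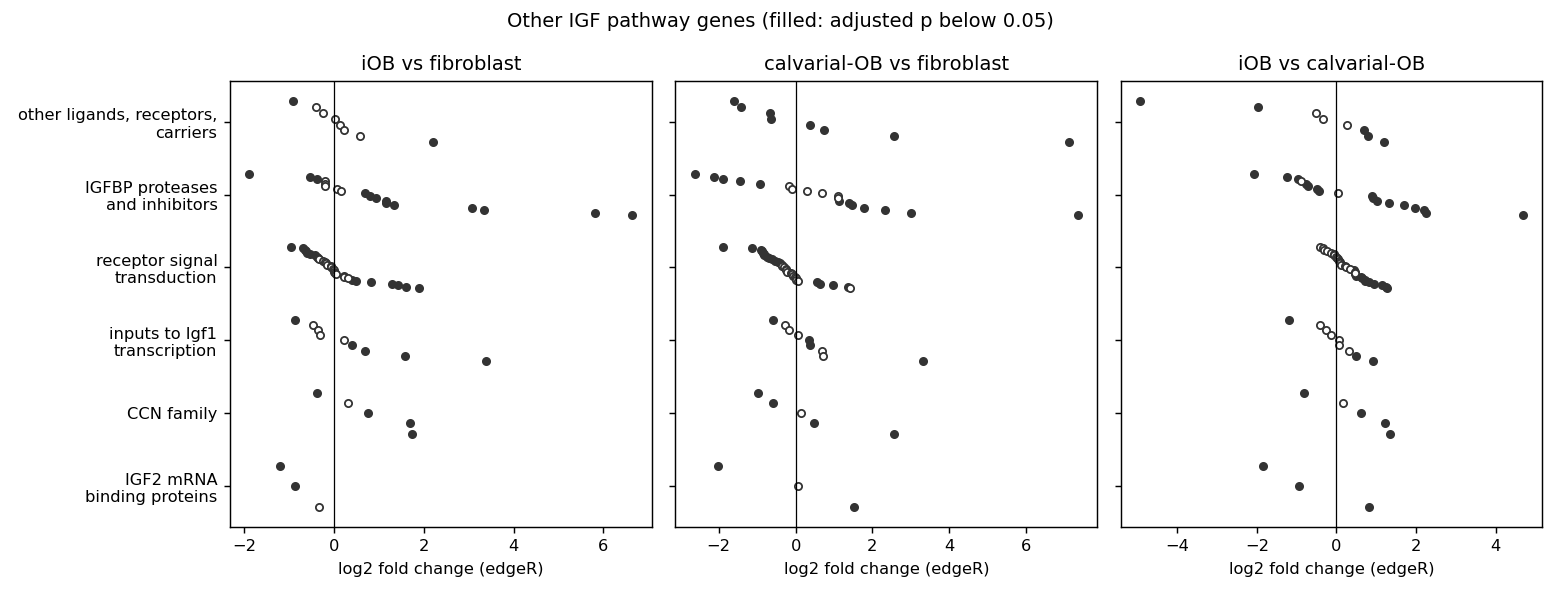
edgeR log2 fold changes (horizontal axes) of all tested genes of the 6 other pathway lists (rows), for iOB against fibroblasts, calvarial-OB against fibroblasts and iOB against calvarial-OB. Each point is a gene, filled where the adjusted p was below 0.05; the protease list reaches 7.35 in calvarial-OB, at Pappa2.

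Of 9 inputs to Igf1 transcription, 4 were higher and 1 lower in iOB than in fibroblasts (median log2 fold change 0.22). In calvarial-OB 3 were higher and 1 lower (0.35), with 1 higher without fibroblast replicate 2 or 3 and 2 lower without fibroblast replicate 3 or calvarial-OB replicate 1 or 3. Between iOB and calvarial-OB 2 were higher and 1 lower (0.06), with 1 higher without calvarial-OB replicate 2 or iOB replicate 1 or 2. Pth1r, the receptor of parathyroid hormone, which raises Igf1 in osteoblasts, had 217, 158 and 171 CPM in iOB, 210.2, 183 and 127 CPM in calvarial-OB, and 17.2, 19.4 and 16.0 CPM in fibroblasts. Both cultures stood above all fibroblast libraries. Its log2 fold change was 3.38 ± 0.20 in iOB (edgeR adjusted p = 1.93e-07) and 3.31 ± 0.20 in calvarial-OB (edgeR adjusted p = 1.03e-07). Stat5a, a transcription factor of growth hormone signalling, was lower in iOB, at -0.85 (edgeR adjusted p = 0.000171) and in calvarial-OB, at -0.59 (edgeR adjusted p = 0.00129). Jak2, the kinase of the growth hormone receptor, was higher in iOB than in calvarial-OB by 0.50 (edgeR adjusted p = 0.00426). Cebpd, a factor known to activate Igf1 in rat osteoblasts, was lower in iOB than in calvarial-OB, at -1.18 ± 0.36 (edgeR adjusted p = 0.0164), and at -0.43 without calvarial-OB replicate 1, which had 118 CPM against 37.9 and 42.4 CPM in the other two.

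Of 5 CCN genes tested, whose proteins share a domain with the IGF binding proteins, 3 were higher and 1 lower in iOB than in fibroblasts (median log2 fold change 0.77). In calvarial-OB 2 were higher and 2 lower (0.15), and 3 were higher and 1 lower in iOB than in calvarial-OB (0.61). No gene was lower in iOB than in fibroblasts without fibroblast replicate 2 or 3 or iOB replicate 1, nor in iOB than in calvarial-OB without calvarial-OB replicate 3 or iOB replicate 1 or 3. In calvarial-OB 1 was higher on leaving out fibroblast replicate 1, fibroblast replicate 2, calvarial-OB replicate 2 or calvarial-OB replicate 3. Ctgf, a matrix-associated CCN protein, had 897, 724 and 914 CPM in iOB, 254, 404 and 429 CPM in calvarial-OB, and 254, 254 and 270.1 CPM in fibroblasts. Its iOB values lay above both other groups, which overlapped, at 1.70 against fibroblasts (edgeR adjusted p = 1.14e-05) and 1.22 against calvarial-OB (edgeR adjusted p = 0.000136). Nov was higher in iOB by 1.74 (edgeR adjusted p = 0.000174) and in calvarial-OB by 2.57 (edgeR adjusted p = 5.94e-06). Wisp2 was lower in calvarial-OB than in fibroblasts, at -0.98 (edgeR adjusted p = 1.07e-05), and Wisp1 was higher in iOB than in calvarial-OB by 1.35 (edgeR adjusted p = 5.96e-05). Of the 3 IGF2 mRNA-binding proteins, Igf2bp2 was lower in iOB, at -1.20 (edgeR adjusted p = 9.07e-06) and in calvarial-OB, at -2.02 (edgeR adjusted p = 1.17e-07), and Igf2bp3 was lower in iOB, at -0.86 (edgeR adjusted p = 0.00213). Igf2bp1 was higher in calvarial-OB by 1.52 (edgeR adjusted p = 2.97e-05) and stood at -0.33 in iOB (edgeR adjusted p = 0.233), and iOB was lower than calvarial-OB, at -1.85 (edgeR adjusted p = 1.91e-05), while Igf2bp2 was higher by 0.83 (edgeR adjusted p = 0.000217).

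The authors' deposited tables set iOB and iOB GFP+ against fibroblasts, and share the fibroblast libraries. In the authors' deposited table for iOB, 3 of the 8 genes were higher and 3 lower, where 19.9% and 15.0% of 16208 genes were and 34.9% passed in either direction. In the authors' deposited table for iOB GFP+, 1 was higher and 3 lower, where 23.7% and 21.7% of 16328 genes were and 45.5% passed in either direction, 1 did not pass and 3 had no p-value. Igfbp2 was at 1.88 ± 0.67 in iOB GFP+ (SE; adjusted p = 0.0127) in the authors' deposited table, against 4.34 ± 0.21 in iOB (adjusted p = 1.22e-91). Igfbp7 was at -2.80 ± 0.44 in iOB GFP+ (adjusted p = 1.59e-09) and -1.57 ± 0.11 in iOB (adjusted p = 9.78e-46) in the authors' deposited tables. Igfbp5 was at -1.59 ± 0.37 in iOB GFP+ (adjusted p = 8.39e-05) and -0.34 ± 0.14 in iOB (adjusted p = 0.0426) in the authors' deposited tables. Igfbp6 was at -0.66 ± 0.21 in iOB GFP+ (adjusted p = 0.00649) and 0.11 ± 0.20 in iOB (adjusted p = 0.721) in the authors' deposited tables. Igf1r was at -0.18 ± 0.15 in iOB GFP+ (adjusted p = 0.351) and -0.03 ± 0.13 in iOB (adjusted p = 0.904) in the authors' deposited tables. Whether iOB GFP+ and iOB differ was not tested.

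The 3 genes with no p-value in the authors' deposited table for iOB GFP+ were Igf1, at 0.34 ± 0.92, Igfbp3, at -2.97 ± 0.71, and Igfbp4, at -0.55 ± 0.68. The authors' deposited table for iOB had these at 2.03 ± 0.19, -1.08 ± 0.16 and 1.22 ± 0.18. In the authors' deposited table for iOB GFP+, 377 of 17737 genes (2.13%) had no p-value, among them all 18 macrophage markers, 4 of 10 adipocyte markers and none of the 11 osteoblast markers. Those macrophage markers had log2 fold changes of 2.18 to 4.72 in the authors' deposited table for iOB GFP+. Their SE were 0.84 to 1.08, beside a median SE of 0.148 for genes with a base mean of at least 100. The authors' deposited table for iOB GFP+ gave errors above the median of genes with a base mean of at least 100 for 7 of the 8 members. For Igf1, 0.719% of those genes had a larger error in the authors' deposited table. Of the pathway genes, Pappa2 was at 4.04 ± 0.66 (adjusted p = 7.88e-09), Pappa at -1.50 ± 0.31 (adjusted p = 6.33e-06) and Insr at 0.80 (adjusted p = 1.91e-07) in the authors' deposited table for iOB GFP+.

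**Figure D5:**
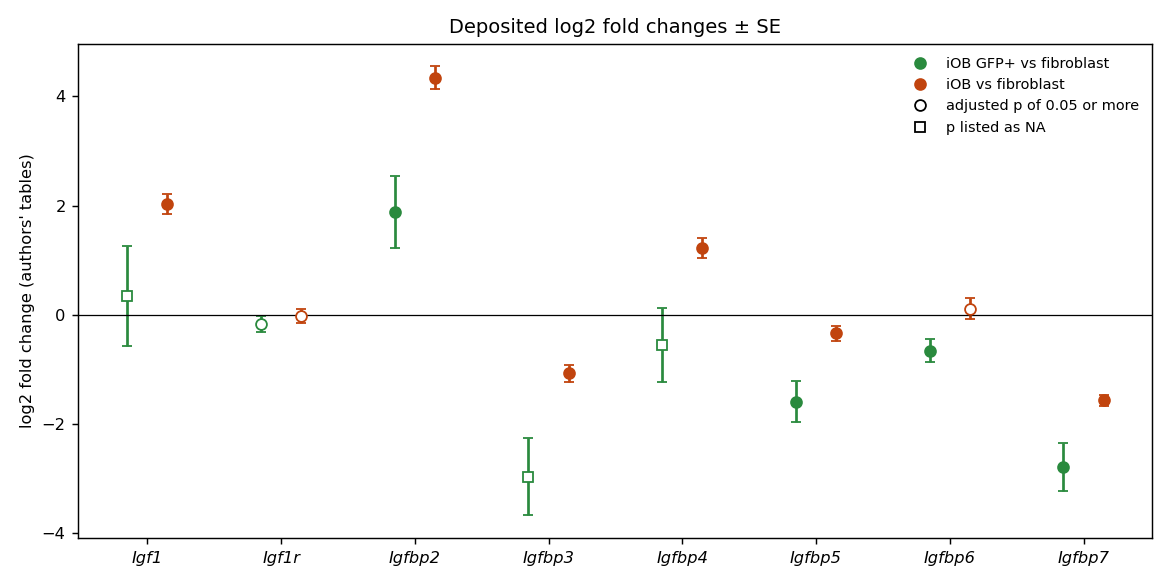
The authors' deposited log2 fold changes of the 8 genes, with standard errors (vertical axis), for iOB GFP+ against fibroblasts and iOB against fibroblasts, with open circles for genes that did not pass and open squares for genes with no p-value. Igfbp2 is at 1.88 in iOB GFP+ and 4.34 in iOB.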

How the data were processed

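The authors deposited whole-number counts per gene symbol for the 9 fibroblast, iOB and calvarial-OB libraries. Count columns with the heading OB were read as calvarial-OB, and 0 columns belonged to no sample. Per the submitters' processing notes, mm9, R 3.2.2, STAR 2.4.2a, DESeq2 and Bowtie2 were used, with no role stated. Annotation and strand setting are not given in the sources used here, so reads from stretches that overlapping genes share could not be told apart. Per the file headers, the authors' result tables hold a base mean (a signal over libraries), a log2 fold change, its error, a Wald-type score, and p-values raw and adjusted. Refitting with DESeq2's fold-change prior came within a median of 0.000338 of the deposited iOB log2 values, which are therefore shrunken; for iOB GFP+ this is not known. The deposited methylation scores were not used here.

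Counts were fitted with edgeR 4.0.16 (R 4.3.3, limma 3.58.1): TMM, filterByExpr (13438 of 17982 genes), quasi-likelihood tests, 9 libraries in a single fit with group as the only term, Benjamini-Hochberg adjustment over all tested genes, threshold 0.05. The biological coefficient of variation was 14.8%. The SE is the absolute log2 fold change over the square root of F, and intervals are 95%. Likeness used log2 CPM with a prior count of 2. Alternatives were RLE and upper-quartile scaling, no filter, a filter of 50 counts in 3 libraries, DESeq2 1.42.0, only the 2 groups compared, a replicate block, Rn45s left out, and each library left out. Fits were tested on simulated data. Figures used matplotlib 3.10.9. The rule named all 8 genes in every comparison, and among the other pathway genes Igf2, Igf2r, Insr, Irs1, Pappa, Stc2 and Htra1 plus the 2 of smallest adjusted p in each list and comparison. The 8 genes and all lists were chosen with earlier results of these data known.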

Additional observations from a re-analysis of the deposited data

How the results depend on the processing

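Of 336 results for the 8 genes under the alternatives, 316 kept their direction and their side of the threshold, and 16 of the 18 calls were kept under all of them. The other 2 were Igfbp5 in iOB against fibroblasts, also not called with RLE scaling, no filter or the stricter filter (edgeR adjusted p = 0.0535, 0.0538 and 0.0531), and Igfbp6 in calvarial-OB against fibroblasts. Differences that were not called changed sign on leaving out a library: Igf1r in iOB against fibroblasts ran from -0.109 to 0.0731 and Igfbp6 from -0.00641 to 0.176, and between iOB and calvarial-OB Igfbp2 ran from -0.0450 to 0.334 and Igfbp4 from -0.0330 to 0.320. The cause was not tested. Whether equal replicate numbers mark paired samples is not known. Deviations from the group mean correlated at -0.146 to 0.147 for same-numbered libraries and at -0.199 to 0.148 for the others. With 3 libraries per group, these values cannot decide the question. With the replicate block the counts of called genes were 5614, 7364 and 6303, against 5820, 7494 and 6561 without it, and Igfbp6 in calvarial-OB against fibroblasts was the only member whose call changed (0.42, edgeR adjusted p = 0.056). Over the alternatives 4717 to 6957 genes were called in iOB against fibroblasts, 6386 to 8003 in calvarial-OB against fibroblasts and 5435 to 7205 in iOB against calvarial-OB. Of the pathway genes, Stc2 was called between iOB and calvarial-OB with upper-quartile scaling, no filter, DESeq2 or the block (edgeR or DESeq2 adjusted p = 0.0376, 0.0489, 0.0332 and 0.021), and with the block also in calvarial-OB against fibroblasts (0.62, edgeR adjusted p = 0.0435). Of the other ligands, receptors and carriers, 4 were lower in iOB than in calvarial-OB with upper-quartile scaling and 1 with the stricter filter, against 2. The smallest library held 5646299 counts, and Htra4 had 25 counts over the 3 calvarial-OB libraries, which limits its precision there.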
